A study of Mus musculus with 10 samples.

Results

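Ret, its 4 GPI-anchored co-receptors Gfra1, Gfra2, Gfra3 and Gfra4, and the ligand genes Gdnf, Nrtn and Artn were followed in trigeminal ganglia of mouse embryos with and without Prdm12. These 8 genes were taken by their Ensembl identifiers from the 55414 genes of each count file, and all 8 passed the filter on low counts. RNA was sequenced at E13.5 (embryonic day) from 5 Prdm12-/- libraries (knockout 16, 29, 42, 49 and 50) and 5 Prdm12+/+ libraries (wild-type 22, 24, 32, 35 and 45), all of strain C57Bl6 and all labelled Sox10 Venus+. The labels name no sorting step, leave the design of the Prdm12 allele unstated, and do not say whether each library came from a separate embryo. The tests therefore rest on the spread of these libraries, which may be partly technical. Sample titles begin with a different letter in each genotype, and only the wild-type titles carry the words Venus plus. Whatever these differences in the titles mark cannot be told apart from genotype.

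GDNF family ligands are dimeric growth factors that signal through the receptor tyrosine kinase Ret. Ret does not bind them alone: each ligand first meets a preferred GFRα co-receptor on the cell surface, GDNF with Gfra1, neurturin with Gfra2, artemin with Gfra3 and persephin with Gfra4, and the complex then brings Ret molecules together. In sensory ganglia of the mouse, Ret marks an early group of touch neurons and, later, non-peptidergic nociceptors, while Gfra3 is known from peptidergic nociceptors. Prdm12 is a zinc finger regulator that nociceptors need in order to form.

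Levels below are CPM, the counts of a gene per 1000000 counts of its library after TMM scaling. Knockout 49 had the smallest total, 3258008 counts, followed by knockout 29 with 13603690, and the other 8 libraries had 27308327 to 33556002. A level of 3 counts corresponds to 0.869 CPM in knockout 49, 0.236 CPM in knockout 29 and at most 0.107 CPM in the other libraries. Prdm12, the targeted gene, stood at 8.74 to 42.7 CPM in knockout ganglia and 74.3 to 264 CPM in wild-type ganglia, and in the GENCODE M21 annotation the antisense gene Gm13425 shares 8.09% of its exon bases, so part of either gene's reads could come from the other. Wild-type 32 and 35 stood apart from the other 8 libraries on the first principal component, which held 32.2% of the variance. They had the lowest mesenchyme marker sums of all libraries, 525 and 739 CPM, and the highest sums over 12 pan-neuronal genes, 14613 and 15094 CPM. The sensory neuron markers Isl1, Pou4f1, Avil, Prph and Drgx were detected in every library. Avil and Prph gave edgeR log2 fold changes of 0.01 and 0.13, while Isl1 was at -0.79, Pou4f1 at -0.83 and Drgx at -0.72, the last 3 with an unadjusted p under 0.05 and adjusted p from 0.217 to 0.339. Limma voom with quality weights called Isl1 and Pou4f1 lower (adjusted p = 0.0155 and 0.0185).

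Ret (ENSMUSG00000030110) fell in knockout ganglia and was the only one of the 8 genes to pass the threshold of 0.05 on the adjusted p in edgeR's quasi-likelihood test. Its level was 57.0, 77.8, 51.0, 44.0 and 73.1 CPM in knockout 16, 29, 42, 49 and 50, against 96.4, 149, 315, 349 and 204 CPM in wild-type 22, 24, 32, 35 and 45. Every knockout library was below every wild-type library, and the wild-type values were spread far more widely than the knockout values. The means were 60.6 ± 14.4 CPM in knockout ganglia and 222 ± 108 CPM in wild-type ganglia (SD, 5 libraries in each group). The log2 fold change was -1.87 with an SE of 0.33 (adjusted p = 0.0337). Over all 18005 genes tested, 0.372% were called lower, 0.0944% higher and 0.467% in either direction, and the median log2 fold change was -0.03.

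**Figure D1:**
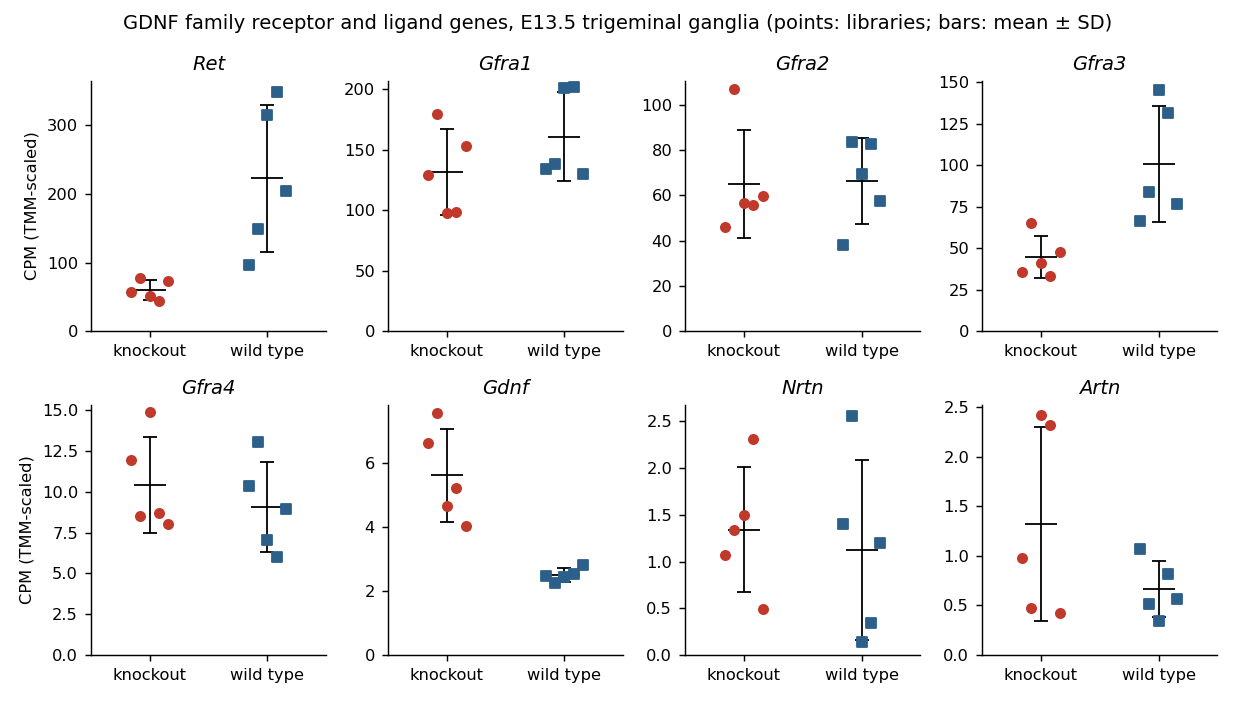
CPM (TMM-scaled, linear axis from 0) of Ret, the 4 co-receptors and 3 ligand genes, with 1 point per library, knockout on the left and wild type on the right; bars are mean ± SD of 5 libraries. The groups do not overlap for Ret and Gfra3, which are lower in the knockout, or for Gdnf, which is higher there, and they overlap for the other 5 genes.

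The size of the Ret difference depended on wild-type 32 and 35, and its call on many single libraries. Without those 2 libraries the log2 fold change was -1.25 and the adjusted p 0.207. Leaving out each library in turn kept the value between -2.06 and -1.65, but the call was lost without knockout 16, 29, 42, 49 or 50 and without wild-type 32, 35 or 45 (adjusted p from 0.0584 to 0.129). In bulk RNA, fewer Ret-expressing cells and less Ret RNA per cell cannot be told apart.

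The pan-neuronal sum gives a second scale for the receptors. It was 6186 to 13690 CPM in knockout ganglia and 8279 to 15094 CPM in wild-type ganglia, and edgeR called none of the 12 genes, with 3 lower at an unadjusted p under 0.05. Per 1000 pan-neuronal counts, Ret had 5.16 to 7.82 counts in knockout ganglia and 11.6 to 23.1 counts in wild-type ganglia, again without overlap. Scaling all libraries to this sum left Ret called, with a log2 fold change of -1.47 (adjusted p = 0.0317), while the median of all genes moved to 0.29. One of the 12 genes, Elavl4, was itself below every wild-type library in every knockout library, at 253 ± 49.7 CPM in knockout ganglia and 529 ± 182 CPM in wild-type ganglia, with an adjusted p of 0.0851 in edgeR. Elavl4 was called lower by DESeq2 (adjusted p = 0.00496) and by limma voom (adjusted p = 0.00952), which also called Stmn2 lower (adjusted p = 0.0356), so the sum is not a fixed scale.

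Gfra3 (ENSMUSG00000024366), the artemin co-receptor, was the co-receptor with the largest difference. It was at 35.8, 65.1, 41.3, 33.3 and 47.9 CPM in knockout 16, 29, 42, 49 and 50, against 66.4, 83.8, 145, 132 and 76.5 CPM in wild-type 22, 24, 32, 35 and 45. All knockout values lay below all wild-type values, with knockout 29 just under wild-type 22. The log2 fold change was -1.17 (SE 0.26, 95% interval -1.73 to -0.61), and the adjusted p of 0.0807 missed the threshold. Gfra3 was called lower by DESeq2 (adjusted p = 0.00451), by limma voom with quality weights (adjusted p = 0.00931) and by edgeR with no low-count filter (adjusted p = 0.0444). Over all genes, DESeq2 called 1.32% lower and 2.22% higher, and limma voom called 6% lower and 7.02% higher. Without wild-type 32 and 35 the log2 fold change was -0.71 (adjusted p = 0.540), and with pan-neuronal scaling it was -0.80 (adjusted p = 0.258). Per 1000 pan-neuronal counts Gfra3 had 3.24 to 6.27 counts in knockout ganglia and 7.68 to 9.92 counts in wild-type ganglia. Of all genes tested, 2.92% had every knockout library below every wild-type library, as Ret and Gfra3 did.

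Gfra1 (ENSMUSG00000025089), the GDNF co-receptor, showed no difference beyond the spread between libraries. Its values were 129, 179, 97.3, 98.4 and 153 CPM in knockout 16, 29, 42, 49 and 50, against 134, 138, 201, 201 and 130 CPM in wild-type 22, 24, 32, 35 and 45. Only wild-type 32 and 35 stood above the knockout range. The log2 fold change was -0.29 with a 95% interval of -0.75 to 0.17 (adjusted p = 0.557), and a fall as large as that fitted for Ret lies outside the interval. The sign of this small value turned without wild-type 32 and 35 and under pan-neuronal scaling. Set against pan-neuronal counts, Gfra1 was at 14.4 ± 1.96 per 1000 in knockout ganglia and 14.1 ± 1.37 per 1000 in wild-type ganglia (SD, n = 5 each). In the GENCODE M21 annotation an antisense gene covers 7.60% of Gfra1's exon bases, and that gene had at most 2 counts in any library.

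Gfra2 (ENSMUSG00000022103), the neurturin co-receptor, likewise did not pass. It stood at 46.0, 107, 56.8, 55.6 and 59.5 CPM in knockout 16, 29, 42, 49 and 50, against 38.0, 83.3, 69.3, 82.8 and 57.4 CPM in wild-type 22, 24, 32, 35 and 45. Knockout 29 was the highest of the 10 libraries and wild-type 22 the lowest. The log2 fold change was -0.03 with a 95% interval of -0.60 to 0.55 (adjusted p = 0.976), and its sign changed under several alternatives. Knockout 29 also had the highest glial marker sum, 5045 CPM, where the other knockout libraries had 1352 to 1913 CPM and the wild type 1322 to 2484 CPM. Whether glial RNA had a part in its Gfra2 level was not tested.

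Gfra4 (ENSMUSG00000027316), the persephin co-receptor, was the lowest of the 4 co-receptors per kilobase of exon. Its level ranged from 8.0 to 14.9 CPM in knockout ganglia and from 6.01 to 13.0 CPM in wild-type ganglia (log2 fold change 0.20, 95% interval -0.37 to 0.77, adjusted p = 0.751). Its 2 lowest values came from wild-type 35 and 32, the libraries with the most Ret.

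**Figure D2:**
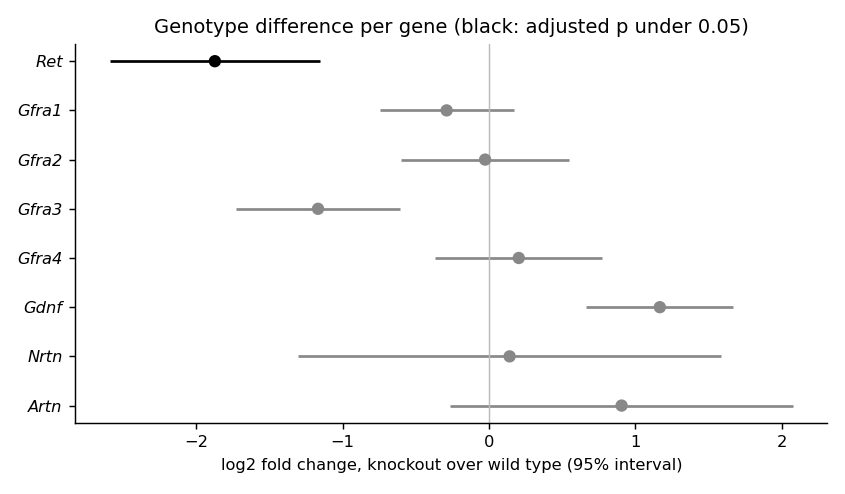
Log2 fold change of each gene, knockout over wild type, from edgeR's quasi-likelihood fit, with its 95% interval; black marks an adjusted p under 0.05. Ret is the only gene in black, at -1.87, and the intervals of Gfra3 (-1.73 to -0.61) and Gdnf (0.67 to 1.67) also lie on one side of 0.

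Each co-receptor was then set beside Ret within the same library, as the ratio of their counts, which does not depend on library scaling. Gfra1 had 2.26, 2.30, 1.91, 2.24 and 2.09 counts per Ret count in knockout 16, 29, 42, 49 and 50, against 1.39, 0.927, 0.639, 0.577 and 0.637 in wild-type 22, 24, 32, 35 and 45. The knockout libraries lay close together and all above the wild-type libraries, among which wild-type 22 was nearest. The log2 ratio was 1.11 ± 0.11 in knockout ganglia and -0.35 ± 0.53 in wild-type ganglia (SD, n = 5 each), a difference of 1.45. An exact two-sided permutation test over all assignments of the libraries to 5 against 5 gave p = 0.00794, the smallest it allows, and 0.0106 after Benjamini-Hochberg adjustment over the 4 ratios.

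Gfra2 and Gfra4 were also higher relative to Ret in knockout ganglia. Gfra2 had 0.807 to 1.37 counts per Ret count in knockout ganglia and 0.220 to 0.560 in wild-type ganglia, a difference of 1.72 in the log2 ratio (exact permutation p = 0.00794, adjusted p = 0.0106). For Gfra4 the log2 ratio was -3.19 to -1.77 in knockout ganglia and -5.86 to -3.22 in wild-type ganglia, a difference of 1.97 (exact permutation p = 0.00794, adjusted p = 0.0106). Its groups came within 0.03 of each other on that scale. The 4 ratios share Ret as their denominator and are not independent of each other. With Ret fitted at -1.87, a co-receptor that did not change would also show a higher ratio. The ratios of Gfra1, Gfra2 and Gfra4, whose log2 fold changes were -0.29, -0.03 and 0.20, thus largely restate the fall of Ret. P-values were adjusted over 4 ratios here, but over 18005 genes for the call of Ret itself.

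Gfra3 kept closest to Ret. It had 0.628, 0.837, 0.810, 0.757 and 0.655 counts per Ret count in knockout 16, 29, 42, 49 and 50, against 0.689, 0.564, 0.461, 0.377 and 0.376 in wild-type 22, 24, 32, 35 and 45. The groups overlapped through wild-type 22. The log2 ratio differed by 0.61 (exact permutation p = 0.0238, also 0.0238 after adjustment), so the Gfra3 count was also higher relative to Ret in knockout ganglia. This call was lost without wild-type 32 and 35 (difference 0.48, adjusted p = 0.0714) and without knockout 29 and 49 (0.53, adjusted p = 0.0893), whereas those of Gfra1, Gfra2 and Gfra4 were made under all 14 alternatives.

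**Figure D3:**
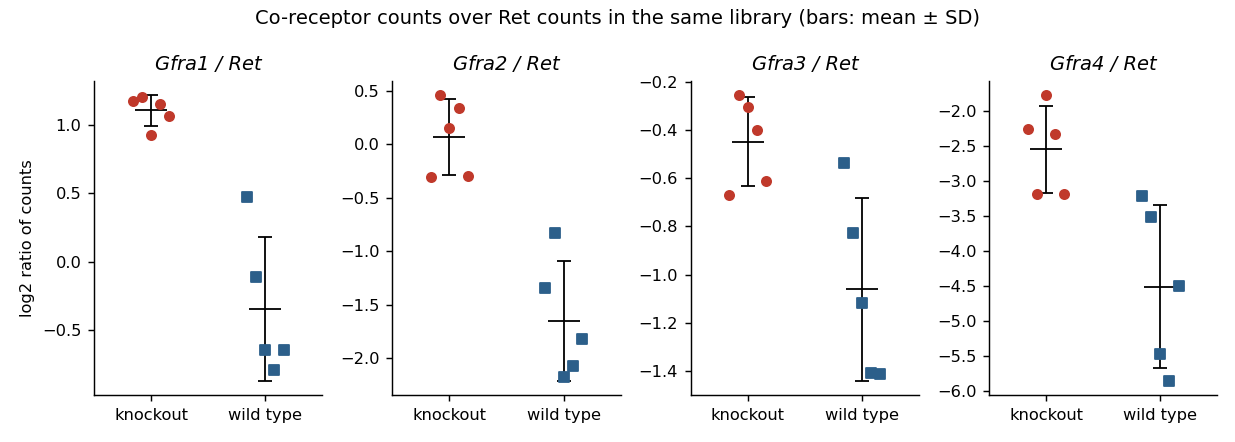
Log2 ratio of each co-receptor's count to the Ret count in the same library, 1 point per library, knockout left and wild type right, with mean ± SD of 5 libraries; each panel has its own axis. Knockout libraries lie above all wild-type libraries for Gfra1, Gfra2 and Gfra4, and overlap with wild-type 22 for Gfra3, whose difference (0.61) is the smallest of the 4.

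The co-receptors were also compared with each other, in all 6 pairs, a comparison added after the values were seen. Gfra3 was lower relative to Gfra1 in knockout ganglia, with a log2 ratio of -1.56 ± 0.23 in knockout ganglia and -0.71 ± 0.20 in wild-type ganglia (SD, n = 5 each, exact permutation p = 0.00794, adjusted p = 0.0238 over the 6 pairs). It was also lower relative to Gfra2, at -0.52 ± 0.20 in knockout ganglia and 0.59 ± 0.40 in wild-type ganglia (exact permutation p = 0.00794, adjusted p = 0.0238). In both pairs the groups did not overlap. Both missed the threshold without wild-type 32 and 35 (adjusted p = 0.0536 each, exact permutation test) and without knockout 29 and 49 (0.0714 each), where 8 libraries allow no exact p below 0.0179. Among Gfra1, Gfra2 and Gfra4, no pair passed (differences of 0.25 to 0.51, adjusted p from 0.381 to 0.619), and Gfra4 to Gfra3 missed with a difference of 1.36 (adjusted p = 0.0635).

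Levels of different genes were compared per kilobase of annotated exon, as CPM per kb, with exon lengths from GENCODE M21, which may differ from the annotation used for counting. In the knockout the order was Gfra1 (24 ± 6.47), Gfra3 (22.4 ± 6.38), Gfra2 (18.4 ± 6.78), Ret (8.96 ± 2.13) and Gfra4 (4.81 ± 1.37 CPM per kb). The first 3 lay within each other's spread, and Ret was below them. In the wild type it was Gfra3 (50.4 ± 17.6), Ret (32.9 ± 15.9), Gfra1 (29.3 ± 6.76), Gfra2 (18.7 ± 5.38) and Gfra4 (4.19 ± 1.28 CPM per kb), where Ret and Gfra1 lay within each other's spread.

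Gfra3 made up 29.9% to 33.7% of the summed co-receptor CPM per kb in knockout ganglia and 43.4% to 55.0% in wild-type ganglia. The share of Gfra2 was 21.7% to 30.4% in knockout ganglia and 14.7% to 24.3% in wild-type ganglia, with overlap, and that of Gfra1 was 28.9% to 39.3% in knockout ganglia and 26% to 33.4% in wild-type ganglia. The co-receptor sum was 6.70 to 8.65 times the Ret level per kb in knockout ganglia and 2.50 to 5.14 times that level in wild-type ganglia. Every knockout library was above every wild-type library in this ratio, and wild-type 22 was the closest.

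**Figure D4:**
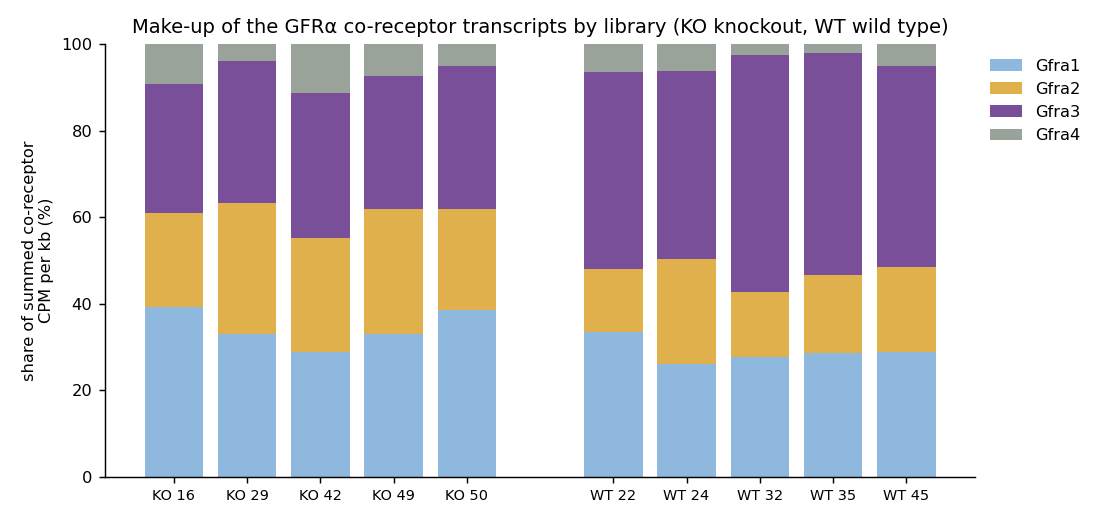
Share of Gfra1, Gfra2, Gfra3 and Gfra4 in their summed CPM per kb, 1 bar per library, knockout (KO) left and wild type (WT) right. Gfra3 takes 29.9% to 33.7% of each knockout bar and 43.4% to 55.0% of each wild-type bar.

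Among the ligands, Gdnf (ENSMUSG00000022144) differed most. It was at 6.61, 7.55, 4.66, 5.21 and 4.02 CPM in knockout 16, 29, 42, 49 and 50, against 2.47, 2.24, 2.42, 2.53 and 2.82 CPM in wild-type 22, 24, 32, 35 and 45. Every knockout value was above every wild-type value, as for 1.29% of all genes tested, and the wild-type values were close together. The value in knockout 49 rests on 18 counts. The log2 fold change was 1.17 (SE 0.23, 95% interval 0.67 to 1.67), and the adjusted p of 0.0546 missed the threshold. Gdnf was called higher by DESeq2 (adjusted p = 2.9e-05), by limma voom (adjusted p = 0.0152), with library totals in place of TMM scaling (adjusted p = 0.0433) and with a minimum count of 50 (adjusted p = 0.0408). Over all alternatives its log2 fold change stayed between 0.89 and 1.42, with adjusted p up to 0.307 without wild-type 32 and 35.

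Nrtn (ENSMUSG00000039481) and Artn (ENSMUSG00000028539), which encode neurturin and artemin, were near the lower limit of these libraries. Nrtn ranged from 0.489 to 2.32 CPM in knockout ganglia and from 0.139 to 2.56 CPM in wild-type ganglia, with 4 and 10 counts in wild-type 32 and 35 (log2 fold change 0.14, 95% interval -1.30 to 1.58, adjusted p = 0.943). Artn ranged from 0.419 to 2.42 CPM in knockout ganglia and from 0.346 to 1.07 CPM in wild-type ganglia (log2 fold change 0.91, 95% interval -0.27 to 2.08, adjusted p = 0.478). Both intervals leave room for changes of more than 2-fold. Pspn, which encodes persephin, the remaining ligand of the family, had 0 to 16 counts in the knockout libraries and 11 to 18 counts in the wild-type libraries.

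Over the 8 genes, edgeR called 1 lower and 0 higher. At an unadjusted p under 0.05, edgeR gave 2 lower receptor genes, Ret and Gfra3, and 1 higher ligand gene, Gdnf, and DESeq2 and limma voom each called these 3 genes. At that unadjusted p, edgeR gave 6.73% of all genes as lower and 6.4% as higher. DESeq2 called 1.32% of all genes lower and 2.22% higher, and limma voom 6% lower and 7.02% higher. The median log2 fold change was -0.29 over the 5 receptor genes and 0.91 over the 3 ligand genes, against -0.03 over all genes.

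Genes of other cell types that can carry Ret or its ligands were read beside these results. Gata3, a transcription factor of autonomic neurons, was called higher by edgeR, DESeq2 and limma voom, at 7.83 ± 3.28 CPM in knockout ganglia and 1.86 ± 0.57 CPM in wild-type ganglia (edgeR adjusted p = 0.0226). The edgeR call was lost without knockout 50 and without wild-type 22, 32, 35 or 45 (adjusted p from 0.0526 to 0.0812), without both wild-type 32 and 35 (0.204) and without both knockout 29 and 49 (0.0801). Gata2 was called higher by DESeq2 (adjusted p = 0.0223) and by limma voom (adjusted p = 0.0292), but not by edgeR. The 7 autonomic markers summed to 40.8 to 147 CPM in knockout ganglia and 6.28 to 34.6 CPM in wild-type ganglia, without overlap. All 6 that were tested had a log2 fold change above 0, with a median of 1.75. Hand2 and Dbh, the markers on this list that define sympathetic neurons, stayed at or below 1.82 CPM in knockout ganglia and 2.60 CPM in wild-type ganglia. Motor and central neuron markers summed to 4.20 to 108 CPM in knockout ganglia and 0.956 to 26.7 CPM in wild-type ganglia. The 108 CPM was that of knockout 16 alone, and the next highest knockout library, knockout 29, was at 16.2 CPM. Mnx1 did not exceed 0.0667 CPM in any library. Of the 4 tested, edgeR called 0 and limma voom 0, with 2 higher at an unadjusted p under 0.05 in each. DESeq2 called these 2 higher, Slc18a3 (3.71 ± 3.74 CPM in knockout ganglia and 0.70 ± 0.25 CPM in wild-type ganglia) and Chat (1.37 ± 1.5 CPM in knockout ganglia and 0.27 ± 0.23 CPM in wild-type ganglia). Of 5 endothelial markers edgeR called 0, with 4 higher at an unadjusted p under 0.05, while DESeq2 called 2 higher (Cdh5 and Kdr) and limma voom 4. Of 6 mesenchyme markers edgeR called 0, with 0 at an unadjusted p under 0.05, DESeq2 called 0 and limma voom 1 higher (Col3a1). Mesenchyme markers summed to 2006 to 7641 CPM in knockout ganglia and 525 to 4218 CPM in wild-type ganglia, and endothelial markers to 345 to 809 CPM in knockout ganglia and 168 to 457 CPM in wild-type ganglia. The part of any of these cells in the Ret, co-receptor or Gdnf values was not tested.

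**Figure D5:**
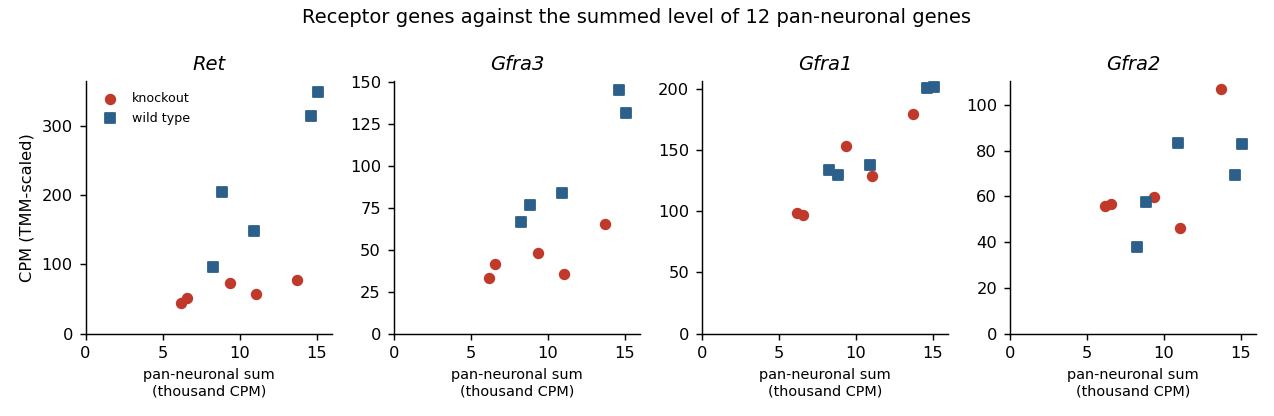
CPM of Ret, Gfra3, Gfra1 and Gfra2 against the summed CPM of 12 pan-neuronal genes (in units of 1000 CPM), 1 point per library, knockout circles and wild-type squares. Ret and Gfra3 points of the knockout lie under the wild-type points, while Gfra1 and Gfra2 points of both groups are mixed.

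Genes that act with or after Ret are given by list, to be read against those shares of all genes. Of 19 tested adaptor and signalling genes that bind Ret or its partners, edgeR called 0, with 1 higher (Gab1) and 1 lower (Dok6) at an unadjusted p under 0.05, shares near those over all genes. DESeq2 called 0 and limma voom 1 of them, Gab1, and their median log2 fold change was 0.10. The 3 with the highest levels were Grb10 (808 ± 192 CPM in knockout ganglia and 870 ± 379 CPM in wild-type ganglia), Plcg1 (290 ± 57.3 CPM in knockout and 288 ± 48.5 CPM in wild-type ganglia) and Ptpn11, the phosphatase SHP2 (202 ± 8.68 CPM in knockout and 208 ± 17.4 CPM in wild-type ganglia).

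Of 7 genes for targets and feedback regulators of receptor tyrosine kinase signalling, edgeR called 0, DESeq2 0 and limma voom 1, Dusp6, which was higher. At an unadjusted p under 0.05 edgeR gave 2 higher (Spry4 and Dusp6) and 0 lower, where 6.4% of all genes were higher and 6.73% lower at that p. Dusp6, a phosphatase of ERK, was at 77.4 ± 14.6 CPM in knockout ganglia and 60.0 ± 6.47 CPM in wild-type ganglia. Etv5 was at 47.9 ± 16.1 CPM in knockout ganglia and 57.2 ± 12.9 CPM in wild-type ganglia, and Etv4 at 48.1 ± 23.0 CPM in knockout ganglia and 46.2 ± 11.5 CPM in wild-type ganglia. Both are ETS transcription factors known to respond to GDNF in other tissues.

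Among 7 other genes for ligands and cell-surface partners, 5 were tested and edgeR called 0, with 1 higher (Sdc3) at an unadjusted p under 0.05 and the same gene called higher by DESeq2 (adjusted p = 0.0183) and by limma voom (adjusted p = 0.00952). At an unadjusted p under 0.05, 6.4% of all genes were higher in edgeR. Ncam1, which can bind GDNF with Gfra1 in the absence of Ret, was at 453 ± 138 CPM in knockout ganglia and 433 ± 105 CPM in wild-type ganglia. Sdc3, a heparan sulphate proteoglycan that binds GDNF, was at 254 ± 50.8 CPM in knockout ganglia and 155 ± 41.4 CPM in wild-type ganglia (log2 fold change 0.71, SE 0.20, adjusted p = 0.169). Sorl1, a sorting receptor that takes up GDNF, was at 48.6 ± 26.1 CPM in knockout ganglia and 28.3 ± 15.2 CPM in wild-type ganglia.

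Markers of the neurons in which Ret is known to appear went different ways. Of 6 genes listed for early Ret-expressing touch neurons, Mafa fell to 0.454 to 2.82 CPM in knockout ganglia, against 7.21 to 19.5 CPM in wild-type ganglia (adjusted p = 0.0287), and Ntrk2 was higher, at 360 ± 57.3 CPM in knockout ganglia and 164 ± 22.3 CPM in wild-type ganglia (adjusted p = 0.00682). The Mafa call was lost without knockout 42, 49 or 50 and without wild-type 24, 32 or 35 (adjusted p from 0.0516 to 0.0876), without both wild-type 32 and 35 (0.201) and without both knockout 29 and 49 (0.116). That of Ntrk2 was lost without both wild-type 32 and 35 (adjusted p = 0.0802) and with pan-neuronal scaling (0.112). The other 4 did not pass in edgeR, but DESeq2 and limma voom each also called Ntrk3 higher and Calb1 lower, and limma voom called Shox2 lower (adjusted p = 0.0216). Over all 18005 genes tested, edgeR called 0.372% lower and 0.0944% higher, DESeq2 1.32% and 2.22%, and limma voom 6% and 7.02%. Calb1, a calcium-binding protein gene, was at 3.35 ± 1.35 CPM in knockout ganglia and 8.12 ± 1.80 CPM in wild-type ganglia (edgeR adjusted p = 0.0997). Means of the others were those of Ntrk3 (348 ± 126 CPM in knockout ganglia and 158 ± 51.4 CPM in wild-type ganglia), Maf (138 ± 44.2 CPM in knockout and 125 ± 27.2 CPM in wild-type ganglia) and Shox2 (26.7 ± 13.1 CPM in knockout and 40.6 ± 8.14 CPM in wild-type ganglia). The nociceptor genes Runx1, Scn10a and Trpv1 were called lower. Scn10a, a sodium channel of nociceptors, was at 11.4 ± 8.5 CPM in knockout ganglia and 307 ± 158 CPM in wild-type ganglia, and its log2 fold change of -4.76 (SE 0.56, adjusted p = 0.00336) lay far below those of Ret and Gfra3. Runx1, a transcription factor of nociceptors, was at 16.3 ± 1.43 CPM in knockout ganglia and 90.1 ± 36.8 CPM in wild-type ganglia. Trpv1, the capsaicin receptor, was at 1.34 ± 0.36 CPM in knockout ganglia and 30.5 ± 22.6 CPM in wild-type ganglia, and its call was lost without knockout 29 and 49 (adjusted p = 0.0573).

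The genes whose pattern over the 10 libraries was most like that of Ret were found by the root mean square difference of log2 CPM, after centring each gene on its mean. The closest was Th, which encodes tyrosine hydroxylase, at 0.25, followed by Pirt (0.29), Adgrg5 (0.30), Nwd2 (0.33) and Gm41442 (0.34), where the median over all genes was 1.08. Th stood at 35.7 ± 12.1 CPM in knockout ganglia and 146 ± 58.7 CPM in wild-type ganglia. Among the co-receptors Gfra3 lay at 0.41 from Ret, Gfra1 at 0.80, Gfra2 at 0.96 and Gfra4 at 1.29. A gene that stayed flat over all 10 libraries would lie at 1.03 from Ret. The distance includes the genotype difference, and this order follows the log2 fold changes of -1.17, -0.29, -0.03 and 0.20.

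The nearest genes to Gfra3 were Ppp1r1c (0.11), Mamld1 (0.17) and 1600029O15Rik (0.18). For Gfra1 they were Pde4dip (0.08), Galnt17 (0.08) and Arrb1 (0.10), and for Gfra2 they were Atf5 (0.16), Rtl8a (0.18) and Cnp (0.19), the last a gene of myelinating glia. Those nearest to Gfra4 were 5930403N24Rik (0.15), Entpd6 (0.17) and Sorcs2 (0.17). None of these lists, each of 3 genes out of 18005, overlapped with another, and how often lists this short would overlap was not tested. These distances describe 10 libraries and carry no test.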

How the data were processed

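The authors deposited raw counts per Ensembl gene, 1 file per library. The submitters' processing notes name bcl2fastq 2.20.0.422, the aligner STAR 2.7.10a, the counter featureCounts 1.5.0-p1 and the builds GRCm39 and mm10 without roles. The sources used here do not give the annotation release, the strand setting or the treatment of multi-mapping reads, so no coordinates are printed. Gene symbols were matched for 52081 of 55414 IDs. No library repeated another of its group (chi-square per gene at least 9.88 in 20 pairs). The lowest value was that of wild-type 32 against 35, and the next lowest wild-type pair, 22 and 45, was at 27.9. From the counts, genes were filtered with filterByExpr (minimum count 10), scaled with TMM and tested with edgeR 4.0.16 (glmQLFit, glmQLFTest) in R 4.3.3. P-values were adjusted by Benjamini-Hochberg over the 18005 genes that remained, and an adjusted p of a gene is edgeR's unless another tool is named. Standard errors are the log2 fold change divided by the root of the F statistic. Log2 ratios of counts used a pseudocount of 0.5, and log2 CPM a prior count of 2. The code was tested on simulated data. That check allowed DESeq2 a larger share of false calls than edgeR or limma voom. The shares found are not reported here.

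Alternatives used DESeq2 1.42.0, limma 3.58.1 and other scalings, filters and library sets. The 8 genes and all lists were chosen with earlier results of these data known. Named genes are the 8 genes, Prdm12, called genes of each list with up to 3 others of highest mean CPM, marker genes, and the nearest genes by pattern (5 for Ret, 3 per co-receptor). Pspn, Elavl4, Stmn2, Gata2, Gab1, Dok6, Spry4, Calb1, Hand2, Dbh and Mnx1 were named after their values were seen. Drgx is Prrxl1 in the symbol table. Intervals are at the 95% level. Some genes of the marker lists are not reported here.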

Additional observations from a re-analysis of the deposited data

Results flagged for a closer look

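Each of the 8 genes and 4 ratios to Ret was checked in each genotype for a library far from the other 4 of its group, 24 groups in all, of which 1 stood out. Chance gives about 1 in 20. Gfra2 was at 107 CPM in knockout 29, and the next highest knockout library was at 59.5 CPM. The glial marker sum was also highest in knockout 29 (5045 CPM).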

How the results depend on the processing

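No paired analysis was possible because no replicate number occurs in both genotypes. Over all genes, edgeR called 17 higher and 67 lower. The counts were 8 and 37 when scaled to 12 pan-neuronal genes, 55 and 102 with no low-count filter, 399 and 238 with DESeq2 and 1264 and 1080 with limma voom with quality weights. Without wild-type 32 and 35 they were 0 and 19, and without knockout 29 and 49, the libraries of lowest depth, edgeR called 6 higher. Leaving out 1 library at a time gave 2 to 35 higher and 27 to 88 lower. The cause of these shifts was not tested.

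Of the 8 genes, 1 was called higher (Gdnf) with library totals, a minimum count of 50, DESeq2 and voom, and 2 lower (Ret and Gfra3) with no filter, DESeq2 and voom. None was called lower without wild-type 32 and 35, or without knockout 29 and 49, and 0 or 1 was with 1 library left out. Ret was lower under all 20 alternatives and called in 10. It was at -1.25 without wild-type 32 and 35, at -1.88 (adjusted p = 0.149) without knockout 29 and 49, and between -2.06 and -1.65 with 1 library left out. Gfra3 stayed between -1.32 and -0.71.

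The sign of Gfra2 (-0.03) turned with DESeq2's size factors in edgeR (0.028), pan-neuronal scaling (0.31), a minimum count of 50 (0.038), the DESeq2 test (0.028) and without wild-type 32 and 35 (0.17), with a range of -0.25 to 0.11 when 1 library was left out. That of Gfra1 turned with pan-neuronal scaling (0.026) and without wild-type 32 and 35 (0.027). Nrtn was at -0.42 without wild-type 32 and 35, at -0.15 without knockout 29 and 49, and between -0.10 and 0.74 with 1 library left out. It was not tested at a minimum count of 50.

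The log2 ratio of Gfra3 to Ret differed by 0.48 without wild-type 32 and 35 and by 0.53 without knockout 29 and 49. In the same order, Gfra3 to Gfra1 differed by -0.73 and -0.87 and Gfra3 to Gfra2 by -0.93 and -0.97, none past the threshold. With 8 libraries the exact permutation test over 56 assignments cannot go below p = 0.0179, and when 2 of 6 pairs reach it the adjusted p is 0.0536. Both pairs were at that value without wild-type 32 and 35, but above it, at 0.0714, without knockout 29 and 49. It does not apply to Gfra3 to Ret, which was adjusted over 4 ratios. Those of Gfra1, Gfra2 and Gfra4 to Ret passed in both sets. Without wild-type 32 and 35, Gfra4 to Gfra1 was at -0.0063 and Gfra4 to Gfra2 at -0.21. Gfra4 to Gfra3 ranged from 1.11 to 1.56 with 1 library left out and passed without knockout 29 (adjusted p = 0.0476). Depth limits Nrtn, Artn and Pspn, with few counts per library.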
